A study of Drosophila melanogaster with 2 samples.

Results

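The binding of Escargot, a Snail-family transcription factor with zinc fingers, was mapped by chromatin immunoprecipitation and sequencing (ChIP-seq) in whole Drosophila melanogaster embryos. Described here are the peaks whose summit, the base of highest signal, lay in an intron close to a promoter but outside its core. A peak was a member when its summit fell inside a transcript but in no exon, and more than 500 bp but at most 5000 bp from the nearest annotated start site. By that rule 1173 of the 4397 peaks on the chromosome arms were members, and the rule used position only. All material came from 1 group: embryos of 0 to 24 h, collected without separating stages or tissues, that carried an esg-eGFP transgene and were precipitated with an antibody against GFP. Chromatin was sonicated to 200 to 800 bp. The group had 2 biological replicates, and there was no second genotype, stage or treatment to compare with. The peaks were called against a control alignment that is not analysed here. Because whole embryos were pooled, binding in few cells and weak binding in many cells cannot be told apart. The read depth of the libraries is unknown, and the 4419 peaks of the series list, 3138 of replicate 1 and 3357 of replicate 2 are the only sizes given here.

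Introns of fly genes, above all long first introns, are known to hold many enhancers, the short stretches where transcription factors bind and set where and when a nearby promoter is used. Snail-family proteins bind E-boxes of the form CAGGTG through their zinc fingers and are best known as repressors. Escargot itself is known for keeping diploid imaginal cells, tracheal tip cells and intestinal stem cells in their state. The E-box is therefore the word examined first under these summits.

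The genomic sequence under the strongest summits is printed first. The 4 strongest members that lay clear of exons and on the arms used for sequences are given with 100 bases on either side of the summit, on the plus strand of dm6, from the RefSeq Release 6 genome. Capitals mark CAGGTG or ACAGTG on either strand (CACCTG and CACTGT are their reverse complements), and all other bases are in lower case.
CG32772, chrX:4910268-4910468: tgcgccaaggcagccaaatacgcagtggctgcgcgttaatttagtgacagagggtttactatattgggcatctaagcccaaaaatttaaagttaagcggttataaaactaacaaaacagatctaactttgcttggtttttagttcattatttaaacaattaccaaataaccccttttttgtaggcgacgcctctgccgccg
Trl, chr3L:14759421-14759621: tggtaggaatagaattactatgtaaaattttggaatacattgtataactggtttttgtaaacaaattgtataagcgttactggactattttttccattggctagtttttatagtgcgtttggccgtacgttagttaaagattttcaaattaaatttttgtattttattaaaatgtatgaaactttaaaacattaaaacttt
Tlk, chrX:3742125-3742325: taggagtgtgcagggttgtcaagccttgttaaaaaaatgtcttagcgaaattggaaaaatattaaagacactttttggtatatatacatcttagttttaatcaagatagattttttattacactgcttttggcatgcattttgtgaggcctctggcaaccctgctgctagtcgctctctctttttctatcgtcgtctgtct
norpA, chrX:4324887-4325087: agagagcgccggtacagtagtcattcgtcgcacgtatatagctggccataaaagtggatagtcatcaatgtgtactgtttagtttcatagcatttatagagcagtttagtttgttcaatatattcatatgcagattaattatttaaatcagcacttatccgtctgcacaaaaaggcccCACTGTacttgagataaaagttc
None of these 4 windows held CAGGTG, which stood in only 5.46% of all member windows, so 4 windows show no lack of it. Their GC content ran from 24.9% at Trl to 40.3% at CG32772. Only the norpA window, in the first intron of the gene for the phospholipase C of fly vision, held ACAGTG.

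The 4 strongest members that did hold CAGGTG, chosen with the same limits, show where the E-box lay in the peaks that had one.
CG42327, chr3R:11656709-11656909: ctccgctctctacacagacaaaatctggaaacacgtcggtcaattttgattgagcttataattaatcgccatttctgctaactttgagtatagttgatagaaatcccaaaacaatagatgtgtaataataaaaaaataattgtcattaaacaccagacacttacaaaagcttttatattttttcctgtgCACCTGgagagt
CG32264, chr3L:3785131-3785331: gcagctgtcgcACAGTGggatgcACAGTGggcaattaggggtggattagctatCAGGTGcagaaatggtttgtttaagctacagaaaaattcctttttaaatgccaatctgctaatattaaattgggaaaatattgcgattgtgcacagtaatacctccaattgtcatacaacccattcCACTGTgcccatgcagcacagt
eff, chr3R:14738570-14738770: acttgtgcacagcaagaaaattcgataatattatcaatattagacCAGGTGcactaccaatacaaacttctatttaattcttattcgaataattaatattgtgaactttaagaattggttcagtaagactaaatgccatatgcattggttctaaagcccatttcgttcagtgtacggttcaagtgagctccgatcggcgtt
aru, chr2L:867369-867569: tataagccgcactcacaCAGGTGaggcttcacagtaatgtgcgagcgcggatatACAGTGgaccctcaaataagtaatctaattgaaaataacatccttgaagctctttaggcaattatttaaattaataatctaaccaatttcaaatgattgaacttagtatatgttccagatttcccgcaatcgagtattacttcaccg
In these windows the E-box stood off the summit, which is the central base. The strongest of them, at CG42327, ranked 32 among the members by signal, and aru ranked 70. At CG32264 the E-box stood beside 3 copies of ACAGTG, of which the copies to the left read forward and the copy to the right read backward.

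That arrangement recurred. NFAT and prage, which are among the stronger members with ACAGTG reading towards the summit from both sides, are printed as 293 bases, again on the plus strand of dm6 with the same capitals. The set was chosen after the positions of the 6-mer had been seen.
NFAT, chrX:13640373-13640665: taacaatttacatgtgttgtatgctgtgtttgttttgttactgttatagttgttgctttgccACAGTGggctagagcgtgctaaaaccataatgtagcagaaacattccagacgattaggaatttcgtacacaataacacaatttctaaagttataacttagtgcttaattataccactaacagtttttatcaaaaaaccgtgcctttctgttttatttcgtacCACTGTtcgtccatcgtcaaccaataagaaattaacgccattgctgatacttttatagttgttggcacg
prage, chrX:1830624-1830916: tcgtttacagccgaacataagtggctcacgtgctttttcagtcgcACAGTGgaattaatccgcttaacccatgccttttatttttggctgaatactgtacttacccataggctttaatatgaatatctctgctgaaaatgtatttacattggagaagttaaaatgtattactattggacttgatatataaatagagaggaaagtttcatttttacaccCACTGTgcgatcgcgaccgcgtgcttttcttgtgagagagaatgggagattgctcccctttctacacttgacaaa
In the NFAT window the centres of the copies lay 81 and 80 bp from the summit, with an AT-rich stretch between them. The distances were 98 and 74 bp at prage. The windows of norpA, CG32264 and aru above can be read in the same way: a copy of the 6-mer to the left of the summit reads ACAGTG, and a copy to the right reads CACTGT.

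The peaks were most dense next to start sites and thinned out with distance. The eligible introns, all intron bases in that range of distances, summed to 24.6 Mb and held 47.7 member summits per Mb, with an exact Poisson interval of 45.0 to 50.5 (95%, counting error only). Within the range the density fell from 77.7 per Mb up to 1000 bp from the start site to 52.8 between 1000 and 2000 bp and 34.9 between 2000 and 5000 bp. The intervals of these 3 bands did not overlap. Intron bases within 500 bp of a start site held 122 summits per Mb, and those over 10000 bp away held 13.7. Intergenic sequence at the members' distances held 27.7 summits per Mb, below the introns in each of the 3 bands, whereas within 500 bp of a start site intergenic sequence was the denser, at 223 per Mb. The limits of the range cut a continuous series. Just outside it lay summits in Dif at 498 bp and CG43736 at 499 bp, and just inside it summits in ru at 502 bp and Ogdh at 503 bp. At the far end Gug and Pdk lay inside at 4997 bp each, and CG46339 and Mnt outside at 5012 and 5022 bp.

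**Figure D1:**
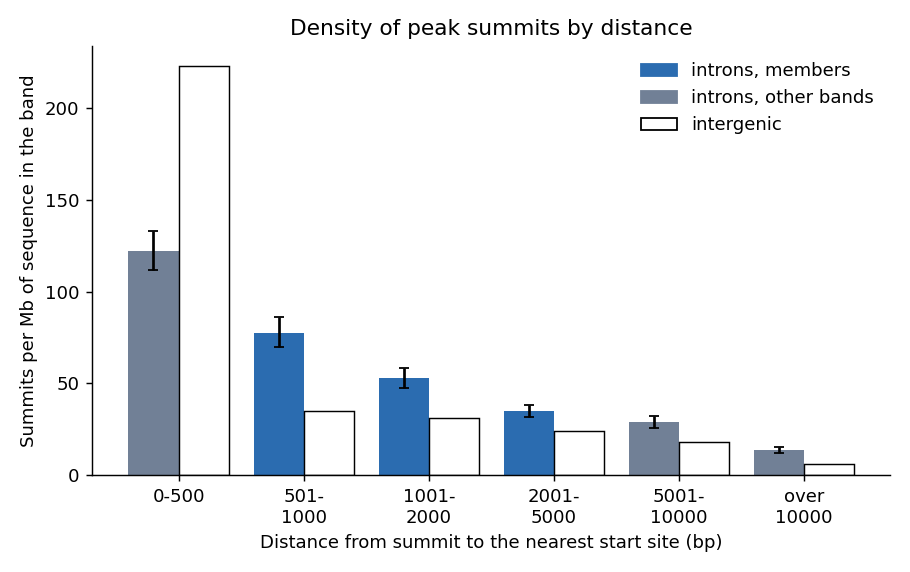
Peak summits per Mb of intron (filled bars) and of intergenic sequence (open bars) in 6 bands of distance from the nearest start site; error bars on the intron bars are exact 95% Poisson intervals, and the 3 blue bars are the members. The intron density falls from 122 per Mb in the nearest band to 13.7 in the farthest, and exceeds the intergenic density in every band but the nearest.

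The members sat mainly in first introns. Of the 1173, 885 (75.4%, exact Clopper-Pearson interval 72.9 to 77.9) lay in the first intron of at least 1 transcript of the host gene, the gene whose intron surrounds the summit. Intronic peaks within 500 bp of a start site had a like share, 398 of 523 (76.1%), so it is not particular to the members. In intronic peaks over 5000 bp away it was lower, 270 of 568 (47.5%). Counting a first intron of any gene gave 889 members (75.8%), whereas first introns made up 57.4% of the eligible bases. Per Mb, first introns held 62.9 members and later introns 27.1, and first introns were the denser in each distance band, with 95.2 against 38.3 up to 1000 bp, 68.9 against 26.9 between 1000 and 2000 bp and 44.5 against 24.8 between 2000 and 5000 bp. Many fly genes have several promoters, so that 1 intron can be first in one transcript and later in another. With the longest transcript of each host alone, 642 of 1168 members (55.0%) lay in the first intron, where 42.6% of the bases were first-intron bases. The surrounding introns were long. The shortest intron around a member had a median of 7075 bp, and 451 members (38.4%) lay in introns of 10000 bp or more, while 56 (4.77%) lay in introns under 1000 bp.

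Most members lay downstream of the start site they were nearest to, but not all. Of the 1173, 661 (56.4%) were downstream of the nearest start site of their host gene, and 275 (23.4%) were upstream of one, which is the position of an intron that precedes an internal promoter. For the remaining 237 (20.2%) the nearest start site belonged to another gene, which was protein-coding for 132, a non-coding RNA for 83, a tRNA for 15, a snoRNA for 5 and a pseudogene for 2. The hosts were protein-coding for 98.6% of members. For the 100 members (8.53%) inside more than 1 gene, a protein-coding gene was taken as host first, then the gene of the nearest start site. That choice favours protein-coding hosts and hosts that own the nearest start site. CG1677 shows how host and nearest gene can part. Its introns surrounded 9 members, and none of the 9 was nearest to a start site of CG1677: 4 were nearest to unc-119, 2 to brk, the repressor that Dpp signalling silences, and the other 3 to CBP or CG42780, genes whose start sites, like those of unc-119 and brk, lie inside the same intron.

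The signal value, which the authors' peak caller gave each peak in a unit not stated here, ran from 2.33 to 1850.2 among members, with a median of 107 and quartiles of 79.4 and 170. The median of all 4397 peaks was 108. Intronic peaks within 500 bp of a start site had a median of 133, those over 5000 bp away 93.8, and intergenic peaks at the members' distances 95.6. Among members the median fell from 113 up to 1000 bp to 103 between 2000 and 5000 bp. The 36 members under 20, which had values up to 16.6, all overlapped another peak of the list, and the replicate peaks under them carried 29.6 to 142 in replicate 1 and 25.7 to 141 in replicate 2. Such a replicate value can belong to the neighbouring peak as well.

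The strongest member lay in the 140 bp second intron of CG11050, on 2L at 6612549 to 6612876 (dm6), 1029 bp downstream of the start site, with a signal of 1850.2 in the series list, 897 in replicate 1 and 953 in replicate 2. HmgZ, which encodes an HMG-box chromatin protein, held the next in its first intron, 588 bp upstream of an internal start site (2R, 21703192 to 21703632), with 1510.0 in the series list, 771 in replicate 1 and 741 in replicate 2. Adf1, a transcription factor first known as an activator of Adh, held the member of 1460.4, at 805 in replicate 1 and 689 in replicate 2. In each of these 3 the replicates lay close together. CG32772 followed with 1333, at 657 in replicate 1 and 669 in replicate 2. Trl, which encodes the GAGA factor that opens chromatin at many promoters, had a peak of 1147 in an intron 1528 bp downstream of a start site, at 543 in replicate 1 and 603 in replicate 2. Tlk, the Tousled-like kinase that acts in chromatin assembly, had 969 in the series list, 482 in replicate 1 and 489 in replicate 2. The next 6 were in CG12769, norpA, CG3726, CG9663, CG9837 and chif, the last of which encodes the fly Dbf4 relative needed for eggshell gene amplification, and their series signals ran from 923 at CG12769 to 745 at chif. All 12 were in the thresholded lists of both replicates. None of the 12 held CAGGTG within 100 bp of the summit, a word that stood in 5.46% of all member windows. Among the 235 members of highest signal the share was 7.66%, so 12 windows are too few to show a lack of it.

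The replicates gave like values to the same members. A peak in the ranked list of each replicate, which holds peaks before the threshold is applied, overlapped 1167 members. Over these members Spearman's rho between the replicate signals was 0.809 and Pearson's r of the log2 values was 0.873, as a description across peaks of 2 libraries that share the genome and the selection for the series list. The replicates lay within 2-fold of each other at 1140 of the 1167 (97.7%), and 36 values in each replicate repeat that of another member that overlaps the same replicate peak.

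**Figure D2:**
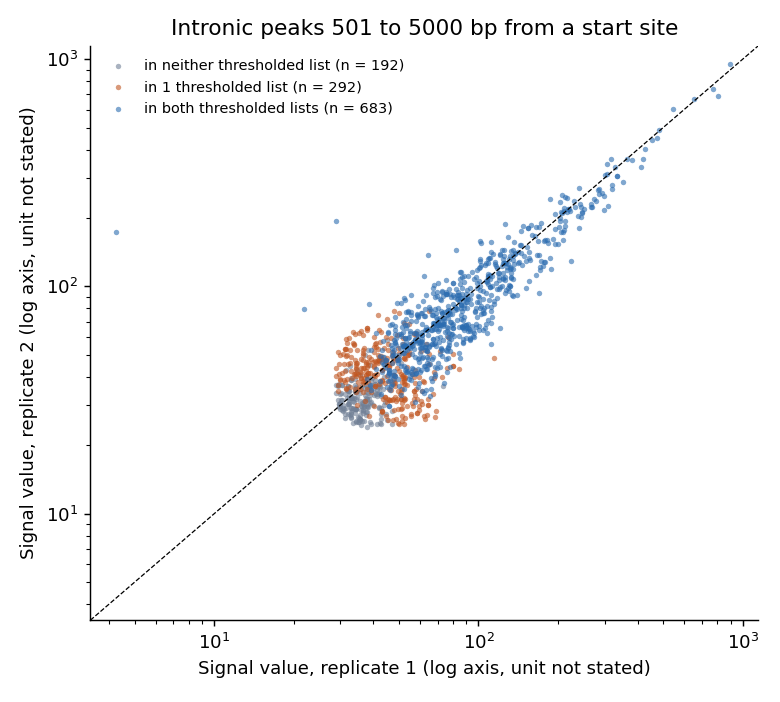
Signal value of each member in replicate 1 (horizontal) and replicate 2 (vertical), both on log axes in the caller's unstated unit, coloured by how many of the replicates' thresholded lists hold a peak over it; the dashed line marks equal values. The 683 members in both lists reach the highest values, and the 192 plotted members in neither list sit at the low end of both axes.

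After thresholding, 683 members (58.2%, exact interval 55.3 to 61.1) overlapped a peak of both replicates by at least 1 bp, 124 a peak of replicate 1 alone, 172 a peak of replicate 2 alone, and 194 a peak of neither. Over all 4397 peaks the share in both was 57.5%, close to that of the members. The series list was made from both replicates, so these shares say how often each library alone gave the peak and are no independent check of it. The share in both was lower than the 67.1% of intronic peaks within 500 bp of a start site (two-sided Fisher's exact test, Benjamini-Hochberg adjusted over 21 tests between the members and 3 other classes, adjusted p = 0.0039). By the same exact test it was higher than the 48.9% of intronic peaks over 5000 bp away (adjusted p = 0.00333) and the 48.2% of intergenic peaks at the same distances (adjusted p = 0.00333). Peaks are not replicates of a condition, and these p-values describe the peaks of these 2 libraries. The share fell from each group to the next when members were ordered by signal. Of the 235 members of highest signal all were in both lists, of the next 235 members 97.0%, then 67.5%, 18.7% and, among the 234 of lowest signal, 7.69%. In that last group 18 members were in both lists, and 16 of the 18 were among the 36 members of signal under 20. All 36 overlapped another peak of the list, so the replicate peaks over them can belong to the neighbour. The fall with signal thus did not continue under 20. Among peaks at or above the median signal of the list, the members' share was 95.2% and none of the 3 differences passed the exact test (adjusted p = 0.834 against the near class, where the sign turned, 0.833 against the far class and 0.746 against the intergenic class). With 0.5 of each peak required to overlap, the share in both was 47.4% and the difference from the intergenic class failed the exact test (adjusted p = 0.0755).

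**Figure D3:**
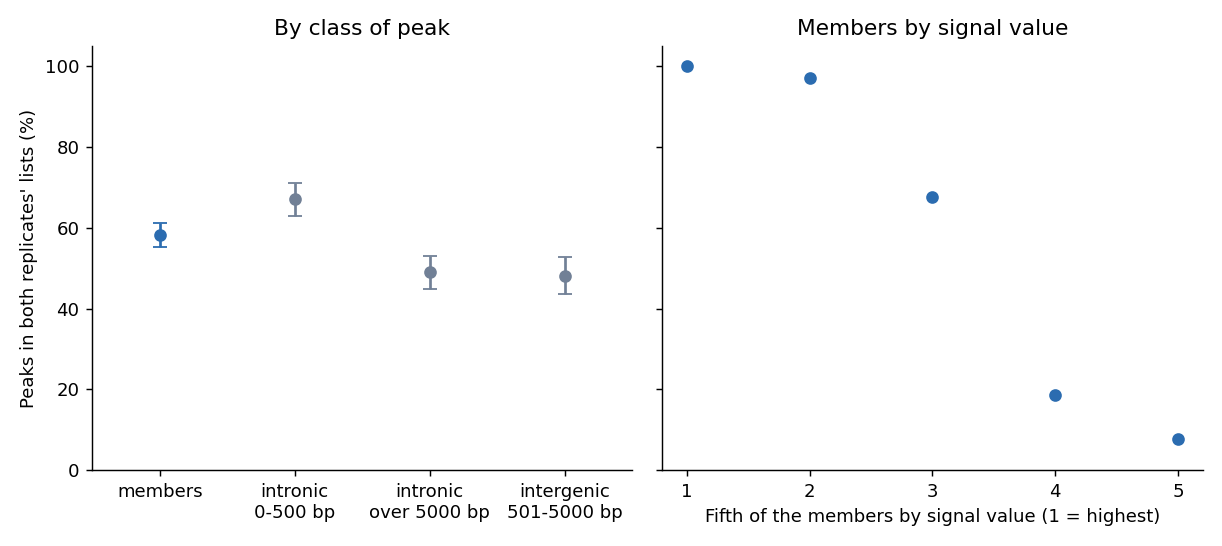
Share of peaks found in the thresholded lists of both replicates, by class of peak with exact 95% intervals (left), and for members ordered by signal value in 5 groups of 234 or 235 (right). Members stand at 58.2%, between the 67.1% of the near intronic class and the 48.9% and 48.2% of the far intronic and intergenic classes, and fall from 100% in the strongest group to 7.69% in the weakest.

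A higher frequency of the Snail-family E-box under the summits than beside them was not found. CAGGTG on either strand stood within 100 bp of the summit in 64 members (5.46%, exact interval 4.23 to 6.91) and in 79 of the windows of the same length centred 1000 bp towards lower coordinates (6.73%, two-sided exact McNemar test, adjusted over 6 words, p = 0.326). All 4397 peaks held it in 5.28% of windows, and the eligible introns cut end to end into 108431 windows of the same length held it in 5.97%. The members did not pass the test against any of the other classes for this word, with differences of 1.44, -0.71 and 0.08 percentage points from the near, far and intergenic classes. Within 50 bp of the summit the E-box was in 2.05% of members and 3.67% of flanks (exact McNemar adjusted p = 0.0418). The 6 words of that adjustment include ACAGTG and TTAAAA, which were picked from these same peaks, so the call is not read as a depletion. Mean GC content in these shorter windows was 31.2% at summits and 40.4% in flanks. Where the windows of a pair differed by at most 5 points in GC content, which left 392 pairs and was chosen after seeing the data, the order turned, to 7.65% at summits and 4.85% in flanks, without passing (exact McNemar adjusted p = 0.188), and with exon-free flanks the shares were 6.06 and 5.71%. GC content differed between the windows compared, with means of 34.1% at summits and 40.4% in flanks, and 298 flank windows touched an exon. Presence of the letters is all that was read, and binding to the E-box itself was not measured.

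ACAGTG was the most frequent of the 6 words that was not AT-only. It stood within 100 bp of the summit in 276 members (23.5%, exact interval 21.1 to 26.1) against 103 flanks (8.78%, exact McNemar p = 8.87e-20, adjusted over all 6-mers). ACAGTG and TTAAAA were picked because both stood out in an earlier scan of these same peaks. Their p-values against the flank over all pairs are therefore given from the scan of all 6-mers and not over the 6 words. The share over all peaks was 20.2%, and over the eligible introns 7.41%. Within 50 bp of the summit the shares were 7.50 and 4.60%. The members held it more often than intergenic peaks at the same distances (23.5 against 16.1%, Fisher's exact test, adjusted p = 0.00437), a difference that did not pass in the list of replicate 1 alone, in the other series list or among peaks at or above the median signal (adjusted p = 0.587, 0.0851 and 0.118). These p-values are adjusted over the tests between classes only and take no account of the picking of the word. TTAAAA, an AT-only word, was in 51.6% of summits and 30.6% of flanks (exact McNemar p = 2.26e-21, adjusted over all 6-mers), and in 53.4% of all peaks. In the 392 pairs of like GC content the ACAGTG shares were 23.5 and 9.95%. TTAAAA no longer passed the exact McNemar test there (adjusted over the 6 words, p = 0.262) and was not called in the scan of all 6-mers. GAGAGA, which the GAGA factor binds, was in 10.8 and 9.89% (exact McNemar adjusted p = 0.608) and in 9.62% of all peaks. Within 50 bp of the summit the GAGAGA difference from the flank was -2.05 points (exact McNemar adjusted p = 0.0418). The adjustment was over the 6 words, with the picked ACAGTG and TTAAAA among them, so this call is not read as a depletion. CAGGTAG, the word of the pioneer factor Zelda, was in 1.02 and 0.767% (exact McNemar adjusted p = 0.664) and in 0.728% of all peaks. TATCGATA, the word of the promoter factor DREF, was in no member window, which allows a share of up to 0.256% (a floor of 3 counts; the exact two-sided interval reaches 0.314%), and in 10 flanks (0.853%, exact McNemar adjusted p = 0.00391). All peaks held it in 2.09% of windows. It was less frequent in members than in intronic peaks within 500 bp of a start site, where 1.15% held it (Fisher's exact test, adjusted p = 0.00437). The difference from the flank did not pass in the list of replicate 1, among peaks at or above the median signal, within 50 bp of the summit, or in the pairs of like GC content or with exon-free flanks. Its adjustment was also over the 6 words, with the picked ACAGTG and TTAAAA among them, so it is not read as a depletion. The call against the near intronic class was lost among peaks at or above the median signal (exact test, adjusted p = 0.118).

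**Figure D4:**
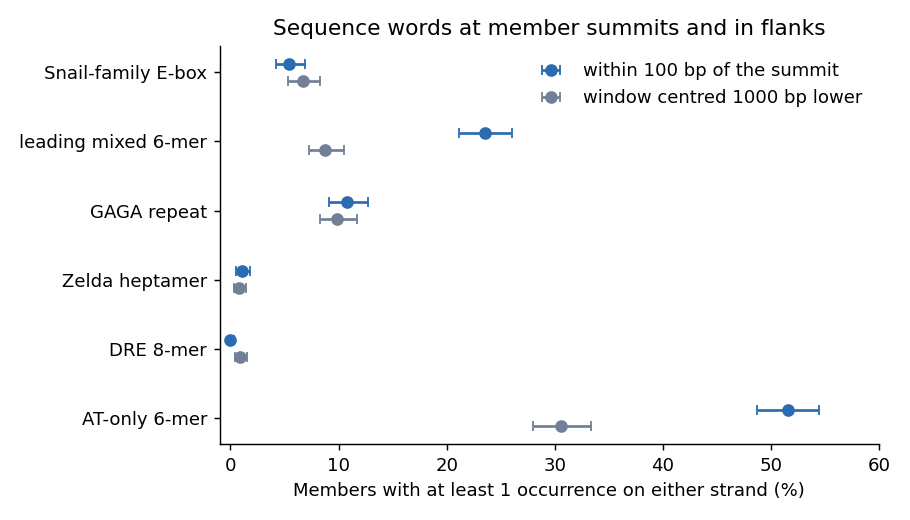
Share of the 1173 members with at least 1 occurrence of each of 6 sequence words, on either strand, within 100 bp of the summit (blue) and in a window of the same length centred 1000 bp lower (grey), with exact 95% intervals. The leading mixed word (ACAGTG in the text) stands at 23.5 against 8.78% and the AT-only word (TTAAAA) at 51.6 against 30.6%, while the Snail-family E-box (CAGGTG) stands at 5.46 against 6.73%.

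A scan of all possible 6-mers, each counted with its reverse complement, gave the background for these words. By the same exact McNemar test adjusted over all 6-mers, 309 were more frequent at summits (14.9%) and 524 less frequent (25.2%), and the calls followed base composition. All 36 AT-only 6-mers were called higher, as were 151 of the 192 with a single G or C, and none of the 36 made only of G and C. By p-value ACAGTG stood at place 3, behind 2 AT-only words of which TTAAAA was the first. In the 392 pairs of like GC content 7 words were called higher and 0 lower by the exact McNemar test (75 and 76 at an unadjusted p below 0.05), against 309 and 524 over all pairs; fewer windows entered that test. First of the 7 was ACAGTG (exact McNemar adjusted p = 0.000335), and each of the others, such as CAGTGG in 18.1 against 8.16% of windows, shares a run of at least 4 bases with it or with its reverse complement. In the 875 pairs whose flank touched no exon, 184 were called higher and 230 lower.

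Most copies of ACAGTG beside the summit read towards it. This pattern was seen after the positions of several words had been plotted, the range of distances was chosen from those plots, and it is given as a description with no test. Between 40 and 140 bp from the summit, 353 copies read towards it and 101 away from it, so that 77.8% pointed inward. Within 40 bp there were 67 copies. At points 1000 bp to either side the counts were 52 towards and 51 away, and 41 towards and 40 away. At least 1 inward copy was present in 270 members (23.0%), and 72 members had inward copies on both sides of the summit, against 0 at either shifted point. The share of members with an inward copy was 31.5% among the 235 of highest signal, 26.4% in the next 235, then 20.1 and 21.7%, and 15.4% among the 234 of lowest signal. The other classes showed the same direction, with 81.3% of copies inward in intronic peaks within 500 bp, 79.8% in those over 5000 bp away and 73.5% in intergenic peaks. CAGGTG read towards the summit 46 times and away 35 times in that range, and GAGAGA 197 and 93 times. The GC content of the members dipped at the summit, from 45.0% in the highest 20 bp bin to 30.2% in the lowest, so the inward copies lay on the slopes of an AT-rich centre, as in the windows printed for NFAT and prage. The dip was shared by the other 3 classes, whose lowest bins were 29.2 to 31.5%.

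**Figure D5:**
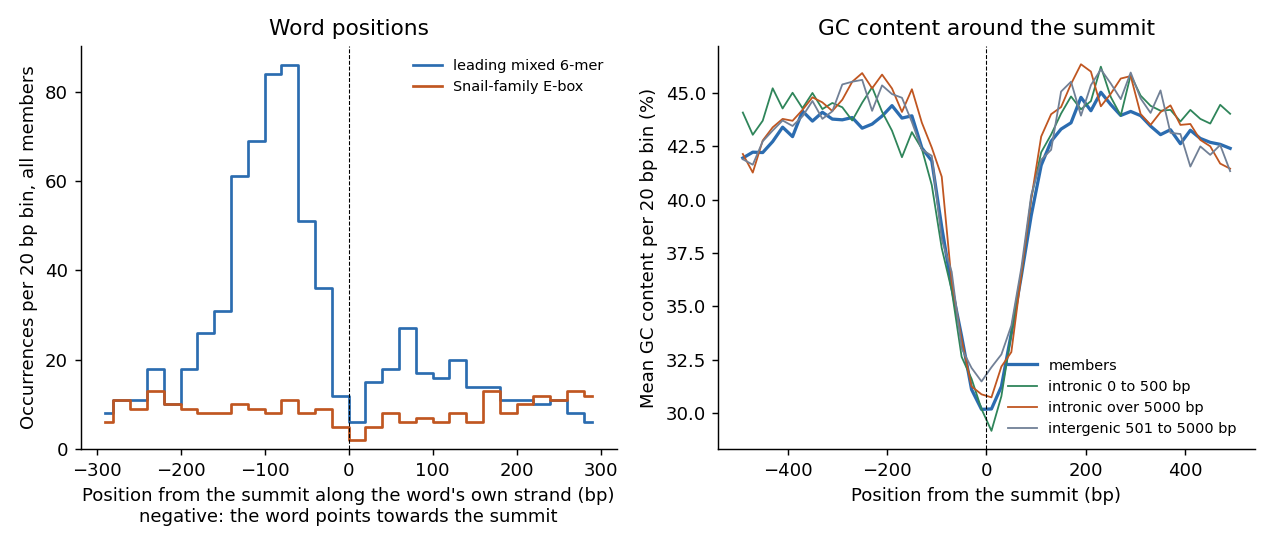
Left, occurrences of the leading mixed word (ACAGTG in the text) and of the Snail-family E-box per 20 bp bin over all members, by position along the word's own strand, so that a word at a negative position reads towards the summit; right, mean GC content per 20 bp bin around the summits of members and 3 other classes. The mixed word peaks on the inward side, with 353 copies inward and 101 outward at 40 to 140 bp, the E-box has no such peak, and GC content falls to 30.2% at the members' centre.

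The members were spread over 736 protein-coding host genes, 8.08% of the 9111 protein-coding genes with an eligible intron base. Counting non-coding hosts as well, 511 hosts held a single member and 143 held a pair. CHES-1-like, which encodes a forkhead transcription factor, had the most, with 11 members in 14.7 kb of eligible intron, of which 8 were in both replicates. Their series signals ran from 49.9 to 636. Tlk held 10, from 58.5 to 969, of which 6 were in both replicates, and shn, which encodes the Schnurri zinc finger protein of Dpp signalling, held 9, from 72.3 to 400.1, of which 7 were in both. SNF4Agamma, the gamma subunit of the AMP-activated kinase, held 8 with a median signal of 70.3, of which only 1 was in both replicates. Hosts had more eligible sequence than other genes, with a median of 7022 bp against 458 bp over all eligible genes, and the medians of the gene lists below ran from 2018 bp in the Polycomb and trithorax list to 11985.5 bp in the neuroblast list, which is to be read beside the 8.08%. The lists were written with earlier results known, and their counts carry no test.

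By arm, the X chromosome held 304 members, 62.8 per Mb of eligible intron (exact Poisson interval 55.9 to 70.3). The other large arms held 38.3 per Mb on 2L, 45.5 on 2R, 47.2 on 3L and 47.3 on 3R, and none of their intervals reached that of X. The intervals count each peak as independent, while CHES-1-like, Tlk and CG1677, all on X, held 11, 10 and 9 members. The X held 25.9% of members, 23.9% of near intronic and 25.4% of far intronic peaks. It held 12.3% of intergenic peaks at the same distances and 20.3% of all peaks, so the other intronic classes had a like share. Chromosome 4, with 0.316 Mb of eligible intron, held 0 members, which allows up to 9.50 per Mb (a floor of 3 counts; the exact two-sided interval reaches 11.7), and the Y chromosome held 0 in 0.0544 Mb. The median signal was 118 on X and 99.9 to 107 on the other large arms.

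Signalling genes were hosts of several strong members. Of the EGFR and JAK/STAT list, 7 of 13 eligible genes were hosts. The strongest of these members lay in aos, which encodes the secreted inhibitor Argos, with a series signal of 497, at 266 in replicate 1 and 229 in replicate 2. The aop gene, which encodes the ETS-domain repressor Yan of the same pathway, had 252, at 152 in replicate 1 and 98.5 in replicate 2. Stat92E, the STAT transcription factor, had 250.3, at 135 in replicate 1 and 119 in replicate 2, and its window held CAGGTG. Of the Notch list 5 of 14 eligible genes were hosts: mam, the coactivator Mastermind, with 396, neur, the ubiquitin ligase that acts on Notch ligands, with 363, Nak, bib and aos again, an EGFR pathway gene that this list also holds. In mam the nearest start site was that of the nested gene CG18371. Of the members given with a signal here, those of mam, neur and aop held ACAGTG near the summit, and those of aos and Stat92E did not. Over all members the shares were 23.5% for ACAGTG and 5.46% for CAGGTG.

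Genes of cell fate and cell shape were hosts in part. Of the mesoderm and muscle fate list 4 of 13 were hosts, led by ths, an FGF ligand of the mesoderm, with 283, at 138 in replicate 1 and 141 in replicate 2. The other 3, with strongest members of 79.5 to 92.5, were twi, Mef2 and Doc1. Of the tracheal list 3 of 10 were hosts: rib, a BTB-domain factor needed for tube growth, with 233, tkv, a Dpp receptor, with 101, and pnt, an ETS activator, with 101. Of the neuroblast list 2 of 8 were hosts: brat, a repressor of translation that is passed to the differentiating daughter cell, with 552, at 286 in replicate 1 and 268 in replicate 2, and aPKC, the apical polarity kinase, with 142. Of the neuronal list 4 of 12 were hosts, led by fru, a BTB-domain factor of courtship circuits, with 168 and Rbp9, a neural RNA-binding protein, with 103. Of the adhesion and polarity list 6 of 16 were hosts, led by crb, the apical determinant Crumbs, with 178, dlg1, a junction scaffold with 5 members, with 152, and aPKC. The junctional cadherin gene shg, which is a textbook target of Escargot in the trachea, had eligible intron sequence and no member. Peaks at shg that do not meet the members' rule were not looked up, so this is no statement on binding at the gene.

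Of the Polycomb and trithorax list 3 of 14 were hosts: Trl, described above, with 3 members, ph-p, a subunit of Polycomb repressive complex 1, with 256 at its strongest, and kis, a chromatin remodeller, with 89.4. Of the Hox list 2 of 8 were hosts, Antp with 170 and Abd-B with 153, and of the imaginal disc selector list 1 of 12, ptc, the Hedgehog receptor, with 114.7. None of the 10 eligible muscle structural genes was a host. Of the Snail and Scratch family itself, esg, sna and wor had no eligible intron, and neither of the remaining 2, scrt and Kah, was a host. Measured per Mb of eligible intron rather than by gene, the lists with a member ran from 12.8 in the imaginal disc selectors (exact Poisson interval 0.323 to 71.1) to 113 in the EGFR and JAK/STAT list (58.3 to 197) and 209 in the Polycomb and trithorax list (95.7 to 397), beside 47.7 over all eligible introns. The Polycomb and trithorax list had 9 members in 43.0 kb, of which 8 had a gene of the list as host, and these 8 alone gave 186 per Mb. The intervals count each peak as independent, while those 8 lay in Trl and kis with 3 each and ph-p with 2. In the EGFR and JAK/STAT list aos and pnt held 3 each of the 12 members. A difference of any list from 47.7 was not tested. The muscle structural list had 0 members in 46.9 kb and the Snail and Scratch family 0 in 4.47 kb. Their exact intervals reached 78.7 and 825 per Mb, both above the 47.7 over all eligible introns. The muscle structural interval ended below that of the Polycomb and trithorax list and overlapped those of the other lists. The Snail and Scratch family cannot be placed below any list.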

How the data were processed

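Peak lists were used as the authors deposited them, in dm6 coordinates. According to the deposited text descriptions, the alignments of the replicates and of a control gave the peaks, which were selected by the irreproducible discovery rate (IDR), a score of how well ranks repeat. No aligner or peak caller is named in the sources used here. The signal value of each peak is the authors' deposited value, in a unit not stated. The deposited −log10 IDR of members ran from 2.00 to 5.

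Summits were placed on Ensembl release 115 (BDGP 6.54, transposable elements left out) and on the RefSeq Release 6 sequence with Python 3.11.15, numpy 2.4.6, pandas 2.3.3 and scipy 1.17.1; plots used matplotlib 3.10.9. Windows spanned 100 bp on either side of a summit. Thresholds were adjusted p below 0.05, with 95% exact intervals that cover counting error only; read depth is unknown. The 6-mer scan was tested on simulated windows, made by shuffling the bases of the members' own windows for both sides of each pair. Both sides thus had the same base composition, so that test does not cover pairs that differ in GC content, as summits and flanks do.

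Members and 12 gene lists (136 genes, 1 matched by an older symbol and 2 unmatched) were chosen with earlier results of these data known. Named genes are the hosts of the 12 strongest members, the 5 hosts with most members, up to 3 hosts per list by signal, the members at the distance limits and, for sequences, the 4 strongest members and the 4 strongest with CAGGTG (arm 2R and exons left out); hosts named beyond these (twi, Nak, bib, the both-sided set and the 6-mers of like GC pairs) and shg were chosen after values were seen. Alternatives were other peak lists, start sites, overlaps, windows and pairs of windows. A further member of the both-sided set is not reported here.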

Additional observations from a re-analysis of the deposited data

How the results depend on the processing

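The rule was met by 580 peaks at or above the median signal. The density of 47.7 per Mb became 41.8 in the other series list, 23.6 at or above the median signal, and 34.8 to 37.4 with the list of a single replicate. The share in both replicates was 47.4% where 0.5 of each peak had to overlap and 95.2% at or above the median signal. The share in first introns was 77.9% at or above the median signal and 55.0% by the longest transcript. With windows of 50 bp on either side, the E-box was -1.62 points and GAGAGA -2.05 points from the flank (exact McNemar adjusted p = 0.0418 each). Both values lie just under the threshold, in an adjustment that includes ACAGTG and TTAAAA, picked from these same peaks. Mean GC content was 31.2% at these summits and 40.4% in their flanks, so neither call is read as a depletion. The E-box stood 2.81 points above the flank in pairs of like GC content and 0.343 in pairs with exon-free flanks, without passing. The 6-mers called lower numbered 336 at or above the median signal. Pairs of like GC content gave 7 higher and 0 lower, and pairs with exon-free flanks 184 and 230. Of the tests between classes, 5 of 21 passed. At or above the median signal 0 did by Fisher's exact test (3 at an unadjusted p below 0.05), in the other series list 1 of 18, and with a single replicate 1 to 2 of 18, since the share in both replicates cannot be formed there. The cause of these shifts was not tested.

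The share in both replicates, which differed by -8.89 points from the near intronic class and passed, stood 0.833 points above it at or above the median signal, without passing (Fisher's exact test, adjusted p = 0.834). Signs also turned for differences that passed neither way. CAGGTAG against the flank was -0.26 points with higher control windows, -0.17 at or above the median signal, -0.77 in pairs of like GC content and -0.217 to 0.350 with a single replicate. Against the near intronic class, GAGAGA was -0.0353 points in the other series list, and CAGGTG -0.240 to 1.04 with a single replicate. Against the far intronic class, GAGAGA was 0.764 in the other series list and -1.56 to 1.21 with a single replicate, CAGGTAG -0.0229 at or above the median signal and -0.201 to 0.376 with a single replicate, CAGGTG 0.554 to 0.908 and TATCGATA -0.163 to 0.109 with a single replicate. Of 234 alternative values, 185 kept direction and side of the threshold, or stayed within the main interval or 1.5 times the main count.

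Leaving out peaks of signal under 20, and pairs by GC content or exons, were chosen after seeing the data. No paired analysis was possible because the series has 1 group. Read depth is unknown, signal has no stated unit, and 2 libraries of whole embryos cannot separate stages or tissues. An intron near a start site need not act on that gene, and no expression was measured. Of the 234 members of lowest signal only 18 were in the thresholded lists of both replicates. Replicate values for the 36 members of signal under 20 can belong to a neighbouring peak, since all 36 overlapped another peak of the list.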

Other observations

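The nearest other summit of the list lay at a median of 2830 bp, and 292 members (24.9%, exact interval 22.4 to 27.5) had one within 1000 bp, against 21.8% of all peaks and 29.7% of intergenic peaks at the same distances. The strongest members were the most often in first introns, 83.0% among the 235 of highest signal against 71.8% among the 234 of lowest. GAGAGA within 100 bp of the summit ran from 14.9% in the strongest of these groups to 8.12% in the weakest, and CAGGTG was 7.66% in the strongest and 3.42 to 6.38% in the others; these are descriptions with no test.

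Peaks that met the rule in other lists but overlapped no peak of the main list numbered 39 in the other series list, 44 in the list of replicate 1 and 78 in that of replicate 2, and their signals reached 107, 74.3 and 67.5 in their own lists.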
